A study of Mus musculus with 16 samples.

Results

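The gene Mir22 gives rise to 2 mature microRNAs, miR-22-3p and miR-22-5p, which come from the 3′ and 5′ arms of the same hairpin. Their rows were found by miRBase identifier, MIMAT0000531 for miR-22-3p and MIMAT0004629 for miR-22-5p, and both were present among the 853 mature microRNAs of the count table. miR-22 was selected on the CPM values of miR-22-3p in deficient against wild-type cells of these libraries, which were already known to be lower, so every level of miR-22-3p is given as a description, without a test. The identifiers are not paired with names in the table, so other microRNAs are called by identifier alone.

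Small RNA was sequenced from cDC1s, sorted from mouse spleen. These conventional type 1 dendritic cells present antigen taken up from other cells to CD8+ T cells. The study compared genotypes in 16 libraries, 4 in each of 4 groups, all from C57BL6 mice. They were compound-deficient cells, which lack both Xbp1 and Ire1 (Ire1a), wild-type cells of that compound line, Xbp1-deficient cells, and wild-type cells of the Xbp1 line. IRE1 is a sensor of unfolded proteins in the endoplasmic reticulum whose ribonuclease splices the Xbp1 mRNA, and XBP1 is the transcription factor made from the spliced mRNA. The labels give neither the age of the mice, nor the way in which the genes were deleted, nor whether each replicate is a mouse of its own. The p-values therefore refer to the spread between libraries, part or all of which may be technical. The targeted mRNAs and the protein-coding markers of cDC1s are not measured by a microRNA table, so genotype and cell type were taken from the labels. In bulk samples of this kind, fewer cells of a type and less RNA per cell cannot be told apart.

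A microRNA hairpin is cut out of a longer transcript by Drosha, its loop is removed by Dicer, and usually the strand of a single arm is kept in an Argonaute protein while the other strand is degraded. The kept strand pairs with mRNAs mainly through its seed, bases 2 to 8. miR-22-3p is the arm usually kept. In mice it has been described as binding the mRNA of Irf8, the transcription factor on which cDC1s depend, and as targeting the mRNA of Tet2, an enzyme of DNA demethylation in blood-forming cells.

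Both mature sequences and the hairpin, taken from RefSeq on the mouse build GRCm38.p6, are shown because the comparison of the arms rests on them. The hairpin lies on the plus strand at chr11:75463716-75463810, within exon 2 of both transcripts that GENCODE annotates for the non-coding host gene Mir22hg. Capitals mark the seed in the mature sequences and the 2 mature arms in the hairpin, all written 5′ to 3′.
miR-22-3p: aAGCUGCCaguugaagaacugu
miR-22-5p: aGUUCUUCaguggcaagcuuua
Mir22 hairpin: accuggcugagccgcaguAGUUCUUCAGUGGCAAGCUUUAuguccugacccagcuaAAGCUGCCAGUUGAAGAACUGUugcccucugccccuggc
Each mature arm is 22 bases long. miR-22-5p occupies bases 19 to 40 and miR-22-3p bases 57 to 78 of the 95-base hairpin, at chr11:75463734-75463755 and chr11:75463772-75463793. In the predicted minimum-energy fold, at −41.9 kcal/mol, 19 base pairs joined both arms, and all 7 seed bases of miR-22-3p were paired. Among 1679 mature mouse microRNAs of the RefSeq table, 0 others shared the seed of miR-22-3p and 0 others shared that of miR-22-5p.

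Total microRNA counts ranged from 175165 to 978134 in compound-deficient libraries, from 332923 to 882108 in the compound-line wild type, from 783372 to 1403393 in Xbp1-deficient libraries and from 400210 to 1103001 in the Xbp1-line wild type. Of the 853 microRNAs, 255 passed the filter on low counts. miR-22-3p passed it and miR-22-5p did not. Counts may include PCR copies, so counting intervals cover counting error only.

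miR-22-3p was among the abundant microRNAs of these cells and the arms were very unequal. By mean CPM, counts scaled to a common library size with the TMM method, miR-22-3p was 10th of the 255 tested microRNAs. All 16 libraries together held 283486 reads of miR-22-3p and 29 reads of miR-22-5p. That is 9775 reads of the 3′ arm for each read of the 5′ arm. The 5′ arm made up 0.0102% of miR-22 reads, with an exact 95% binomial (Clopper-Pearson) interval of 0.00685% to 0.0147%.

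miR-22-3p had the highest mean in the Xbp1-line wild type, followed by the compound-line wild type, Xbp1-deficient cells and compound-deficient cells. In compound-deficient libraries 1 to 4 its level was 17514, 17131, 15152 and 17323 CPM, against 24370, 32514, 30962 and 26853 CPM in compound-line wild-type libraries 1 to 4. All 4 compound-deficient libraries lay below all 4 wild-type libraries of their line. In Xbp1-deficient libraries 1 to 4 the level was 20054, 22551, 21529 and 22181 CPM, against 31196, 27293, 30054 and 29363 CPM in Xbp1-line wild-type libraries 4, 5, 6 and 8. These groups did not overlap either. Ranges lay apart in the lower direction for 5.10% of the 255 tested microRNAs in the compound line and for 7.06% in the Xbp1 line. Because miR-22-3p was chosen for this pattern, nothing is read from its place among them.

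**Figure D1:**
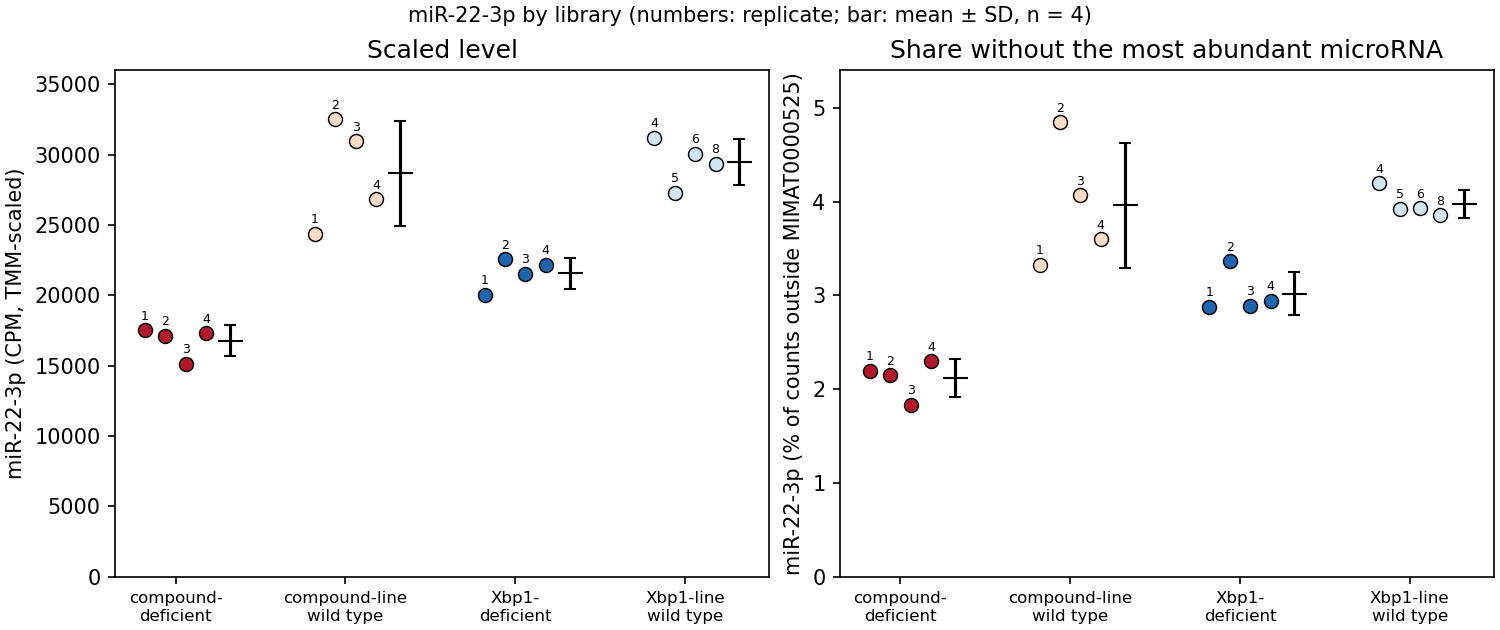
miR-22-3p in each library, as TMM-scaled CPM (left) and as a percentage of all counts outside the most abundant microRNA, MIMAT0000525 (right). Points are libraries with their replicate number and bars are mean ± SD (n = 4); compound-deficient libraries lay at 15152 to 17514 CPM and Xbp1-deficient libraries at 20054 to 22551 CPM, with both wild-type groups above them from 24370 CPM upward.

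The fitted log2 fold change of miR-22-3p was −0.77 (SE 0.11) in compound-deficient cells against their wild type, a change of −41.5%. In Xbp1-deficient cells against theirs it was −0.45 (SE 0.10), a change of −26.8%. The median log2 fold change of all tested microRNAs was 0.04 in the compound line and −0.07 in the Xbp1 line. Among all tested microRNAs, miR-22-3p had the 29th lowest log2 fold change in the compound line and the 48th lowest in the Xbp1 line. Among the 20 most abundant, it had the 2nd lowest in the compound line and the 3rd lowest in the Xbp1 line. Nothing is read from these places either, since miR-22-3p was chosen for being lower. The difference between both changes was −0.32 on the log2 scale (SE 0.15). It was not tested, since both changes entered the choice of miR-22.

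As a share of all reads, with no other scaling between libraries, miR-22-3p was again lower in every deficient library than in every wild-type library of its line. miR-22-3p took 1.66% ± 0.166 of all counts in compound-deficient libraries and 3.07% ± 0.588 in the compound-line wild type (SD, n = 4 each). It took 2.03% ± 0.171 in Xbp1-deficient libraries and 2.98% ± 0.0998 in the Xbp1-line wild type. Counting error was small beside these spreads, at 1.75% of the level in the library with fewest miR-22-3p reads. Ranked by count within a library, miR-22-3p was 12th in every compound-deficient library and 6th to 11th in the compound-line wild type. Its rank was 10th or 11th in Xbp1-deficient libraries and 9th or 10th in the Xbp1-line wild type.

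Shares also depend on the most abundant microRNA, MIMAT0000525. It took 21.8% ± 3.02 of the counts in compound-deficient libraries and 22.8% ± 2.63 in their wild type, and 32.6% ± 2.96 in Xbp1-deficient libraries and 24.9% ± 3.72 in theirs (SD, n = 4 each). Without its reads, miR-22-3p made up 2.12% ± 0.201 of the counts in compound-deficient libraries and 3.96% ± 0.665 in the compound-line wild type. The same share was 3.02% ± 0.231 in Xbp1-deficient libraries and 3.98% ± 0.149 in the Xbp1-line wild type. Deficient and wild-type ranges of this share also lay apart in the compound line, with 2.30% as the highest deficient and 3.33% as the lowest wild-type value. In the Xbp1 line these values were 3.36% and 3.85%.

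Libraries of a group resembled each other closely for miR-22-3p. Its SD of log2 CPM within groups was 0.12, the 5th smallest of the 255 tested microRNAs, whose median was 0.50. That median includes scarce microRNAs, which have more counting error, and microRNAs of like abundance were not compared. The spread of miR-22-3p was widest in the compound-line wild type, at 13.0% of the mean. It was 6.53% in compound-deficient, 5.10% in Xbp1-deficient and 5.56% in Xbp1-line wild-type libraries.

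The deficient genotypes were compared with each other to see whether miR-22-3p differed between loss of both genes and loss of Xbp1 alone. It averaged 16780 ± 1096 CPM in compound-deficient cells and 21579 ± 1101 CPM in Xbp1-deficient cells (SD, n = 4 each), and every compound-deficient library lay below every Xbp1-deficient library. Lower ranges that did not overlap were found for 7.06% of the 255 microRNAs in this comparison. The log2 fold change was −0.36 (SE 0.10). Its p is not given, because the values of miR-22-3p in these same libraries entered the choice of miR-22, and the difference includes any difference between the lines. As background, 7.45% of the tested microRNAs had an adjusted p under 0.05 in edgeR's quasi-likelihood test here, 13 higher and 6 lower.

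The size of this difference depended on the scaling. Over fits that each lacked 1 of the 8 libraries, the log2 fold change stayed between −0.43 and −0.32. With total counts in place of TMM scaling it was −0.30, and with upper-quartile scaling it was −0.60. Relative to the median of all tested microRNAs, the change was −0.48 to −0.50 under all 5 scalings tried. A scaling moves all microRNAs by nearly the same amount, so this narrow range follows from the measure and shows no stability.

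**Figure D2:**
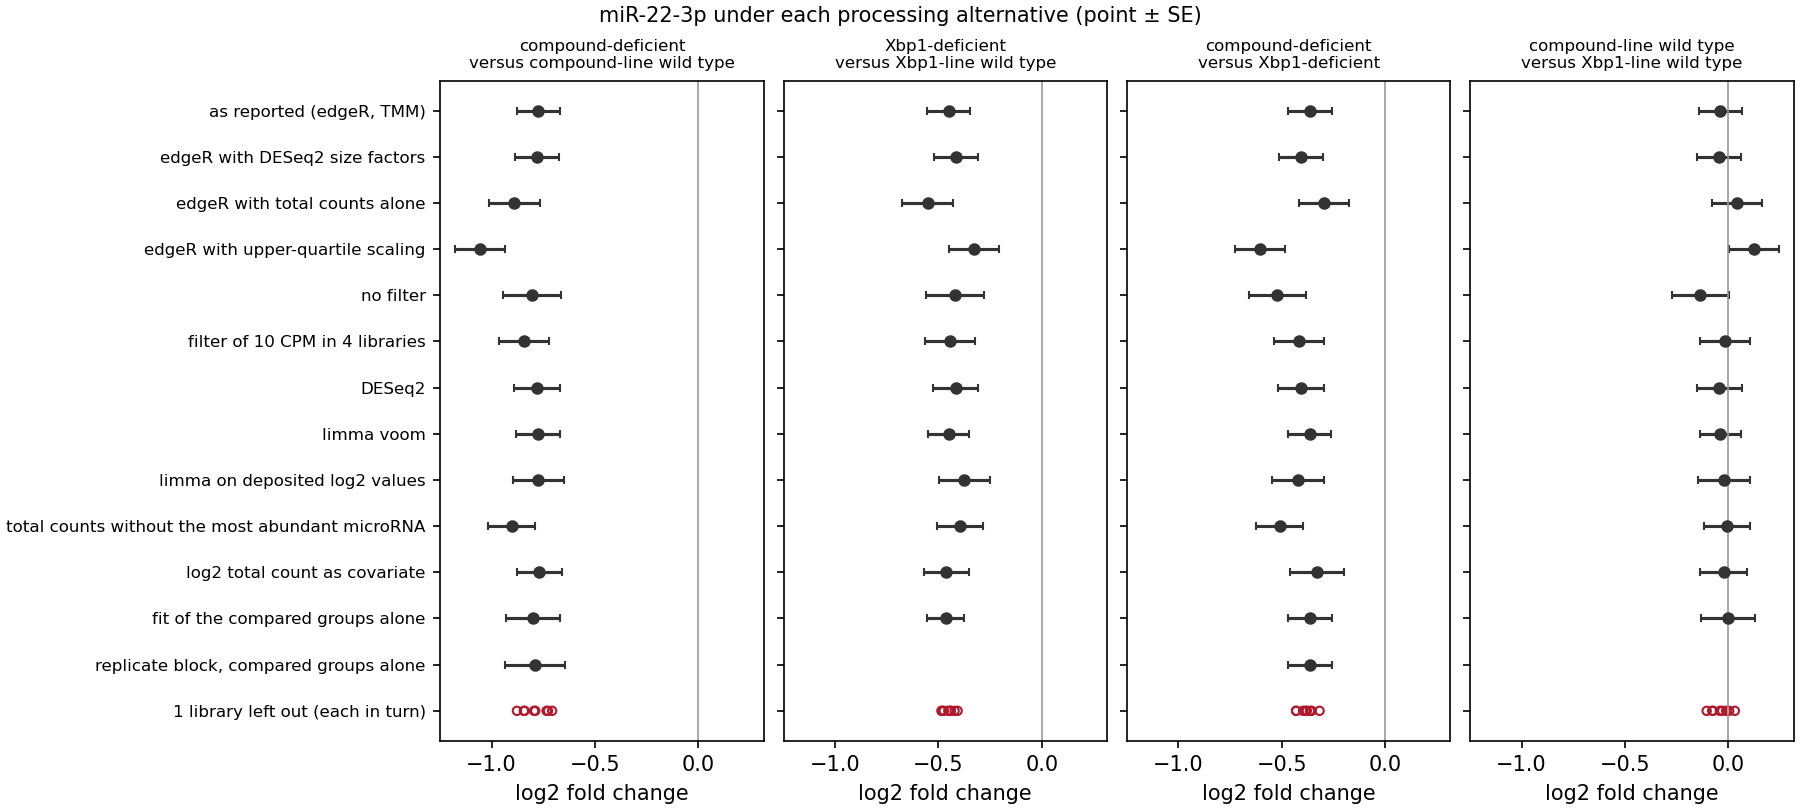
Log2 fold change of miR-22-3p in 4 comparisons (panels) under each way of processing the counts (lines); points are estimates, bars are SE, and open circles are fits with 1 library left out in turn. Estimates stayed below 0 in both comparisons with wild type and between the deficient genotypes, and lay on both sides of 0 between the wild types.

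In wild-type cells of both lines the levels of miR-22-3p were close. It averaged 28674 ± 3733 CPM in the compound-line wild type and 29477 ± 1640 CPM in that of the Xbp1 line (SD, n = 4 each), and these ranges overlapped. Ranges lay apart for 4.31% of the tested microRNAs in this comparison. The log2 fold change was −0.04 (SE 0.10). Its sign changed with total counts alone, at 0.04, and with upper-quartile scaling, at 0.12.

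The 5′ arm, miR-22-5p, was near the limit of detection in every library. It had 0, 1, 2 and 0 reads in compound-deficient libraries 1 to 4, against 4, 7, 2 and 1 reads in compound-line wild-type libraries 1 to 4. It had 1, 4, 3 and 2 reads in Xbp1-deficient libraries 1 to 4, against 0, 0, 2 and 0 reads in Xbp1-line wild-type libraries 4, 5, 6 and 8. Reads were thus found in 11 of 16 libraries, and the lowest and highest values of a group overlapped with those of each other group.

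In scaled units miR-22-5p averaged 1.61 ± 1.90 CPM in compound-deficient cells and 7.01 ± 5.18 CPM in the compound-line wild type (SD, n = 4 each). It averaged 2.55 ± 1.31 CPM in Xbp1-deficient cells and 0.651 ± 1.30 CPM in wild-type cells of that line. The group order of miR-22-5p thus differed from that of miR-22-3p, with the wild types at both ends, but no neighbours in this order lay apart by more than their spread. Below the filter, it had no test among the 255 microRNAs.

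The share of the 5′ arm among miR-22 reads needs no scaling, since both arms are counted in the same library. Pooled over a group, it was 0.00882% in compound-deficient cells (3 reads beside 33996 of the 3′ arm, exact 95% interval 0.00182% to 0.0258%) and 0.0213% in the compound-line wild type (14 reads beside 65701, interval 0.0116% to 0.0357%). It was 0.0117% in Xbp1-deficient cells (interval 0.00559% to 0.0214%) and 0.00204% in the Xbp1-line wild type (interval 0.000247% to 0.00737%). In libraries with 0 reads of the 5′ arm, a limit of 3 counts allows a share of up to 0.0184% and 0.0915% in compound-deficient libraries 1 and 4. In Xbp1-line wild-type libraries 4, 5 and 8 this limit is 0.00908%, 0.0101% and 0.0247%. The two-sided exact 95% intervals of these libraries end somewhat higher, at 0.0226% and 0.112% in the compound-deficient libraries and at 0.0112%, 0.0124% and 0.0304% in the Xbp1-line wild type.

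**Figure D3:**
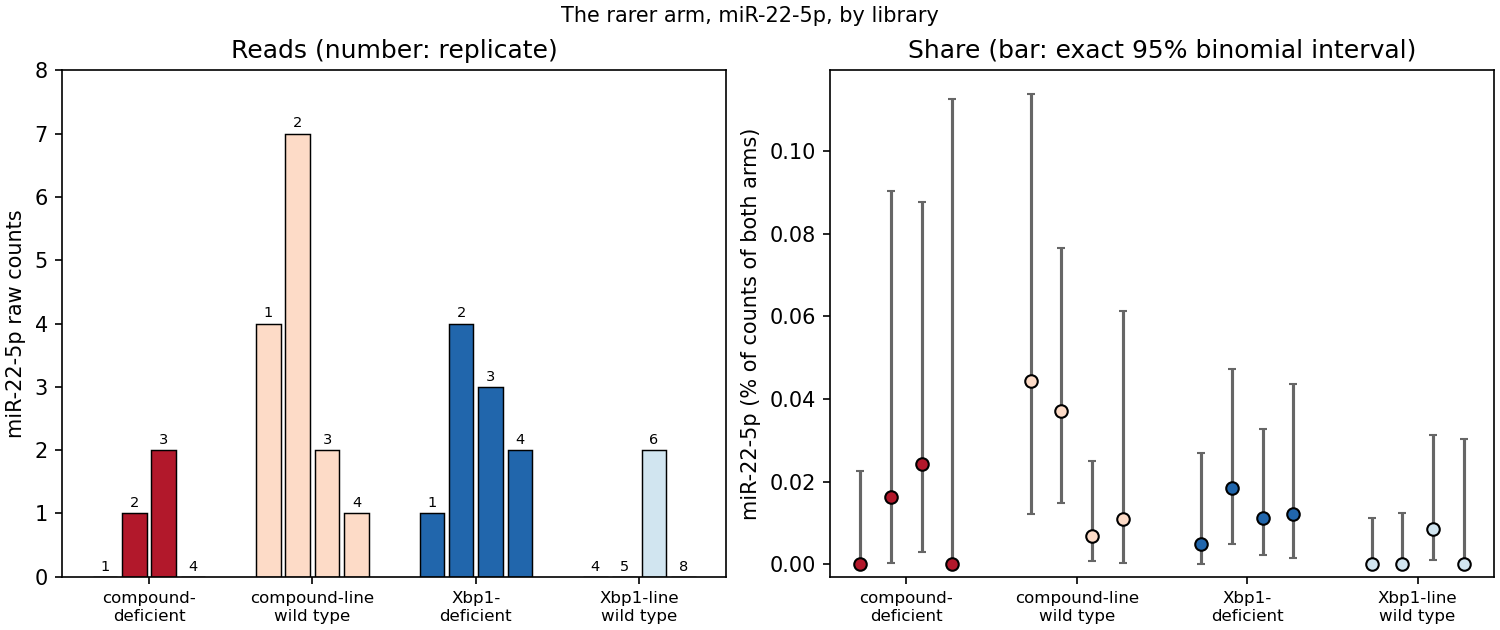
Raw reads of miR-22-5p in each library (left, bars with the replicate number) and its percentage of all miR-22 reads (right, points with exact 95% binomial intervals that cover counting error only). No library had more than 7 reads, and the intervals of compound-deficient library 4 and compound-line wild-type library 1 reach above 0.11%.

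The arm ratio was compared within deficient cells and within wild-type cells, since miR-22 was chosen on deficient against wild-type cells. Its 3′ counts come from libraries that entered the choice, so the ratio is not independent of it. The p-values below are therefore descriptive. As a mean over libraries, the 5′ arm held 0.0101% ± 0.0121 of miR-22 reads in compound-deficient and 0.0116% ± 0.00558 in Xbp1-deficient cells (SD, n = 4 each). The mean log2 ratio of 5′ to 3′ reads, with 0.5 added to each count, was higher by 0.06 in compound-deficient cells. The mean share was lower there, so both measures differed in direction. An exact two-sided permutation test of the log2 ratio gave a p of 0.971. With 0.25 or 1 added in place of 0.5, the same test gave 0.771 or 0.486. Between the wild types the share was 0.0249% ± 0.0187 in the compound line and 0.00216% ± 0.00433 in the Xbp1 line, and the log2 ratio was higher by 2.82 in the compound line. The exact two-sided permutation p was 0.0571, and 0.114 after Benjamini-Hochberg adjustment over these 2 comparisons, where 4 against 4 libraries can give no p below 0.0286. Neither comparison passed. The pooled intervals of the wild types did not overlap, but they cover counting error only and rest on 14 and 2 reads of the 5′ arm, 11 of the 14 from compound-line libraries 1 and 2. The added 0.5 weighs more in shallow libraries.

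Other microRNAs were ranked by how closely their log2 CPM followed that of miR-22-3p over the 16 libraries, as a description. Genotype and scaling are shared by all values of a library, so these coefficients do not show a link between the molecules. Because miR-22-3p was chosen for being lower in deficient cells, microRNAs that follow it tend to be lower there by selection. Over the other tested microRNAs Pearson's r had a median of −0.01 and a lowest value of −0.87, larger in size than any positive one. The highest values were 0.84 for MIMAT0000133, 0.82 for MIMAT0000158, 0.77 for MIMAT0001632, 0.76 for MIMAT0000142 and 0.76 for MIMAT0000212. With group means removed, r was 0.71 for MIMAT0000133, −0.08 for MIMAT0000158, 0.30 for MIMAT0001632, 0.42 for MIMAT0000142 and 0.32 for MIMAT0000212. Only MIMAT0000133 among these 5 thus kept an r above 0.5 within groups.

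MIMAT0000133 averaged 1384 ± 297 CPM in compound-deficient cells and 2128 ± 398 CPM in their wild type, and 2193 ± 163 CPM in Xbp1-deficient cells and 2780 ± 255 CPM in theirs (SD, n = 4 each). MIMAT0000158 averaged 3049 ± 402 CPM in compound-deficient cells and 4725 ± 501 CPM in their wild type, and 3580 ± 269 CPM in Xbp1-deficient cells and 4581 ± 596 CPM in theirs. Both had fitted log2 fold changes close to those of miR-22-3p, at −0.63 in the compound line and −0.34 and −0.36 in the Xbp1 line. The other 3 were scarce and had larger ones, from −2.99 to −1.17 in the compound line and from −1.80 to −1.40 in the Xbp1 line. MIMAT0001632, for example, averaged 13.3 ± 10.4 CPM in compound-deficient cells and 55.8 ± 20.2 CPM in their wild type, and 14.1 ± 9.24 CPM in Xbp1-deficient cells and 50.0 ± 18.3 CPM in theirs. No marker list of other cell types was matched to these identifiers, so whether any of the 5 is such a marker, and what part RNA of other cells had in the values of miR-22-3p, was not tested.

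**Figure D4:**
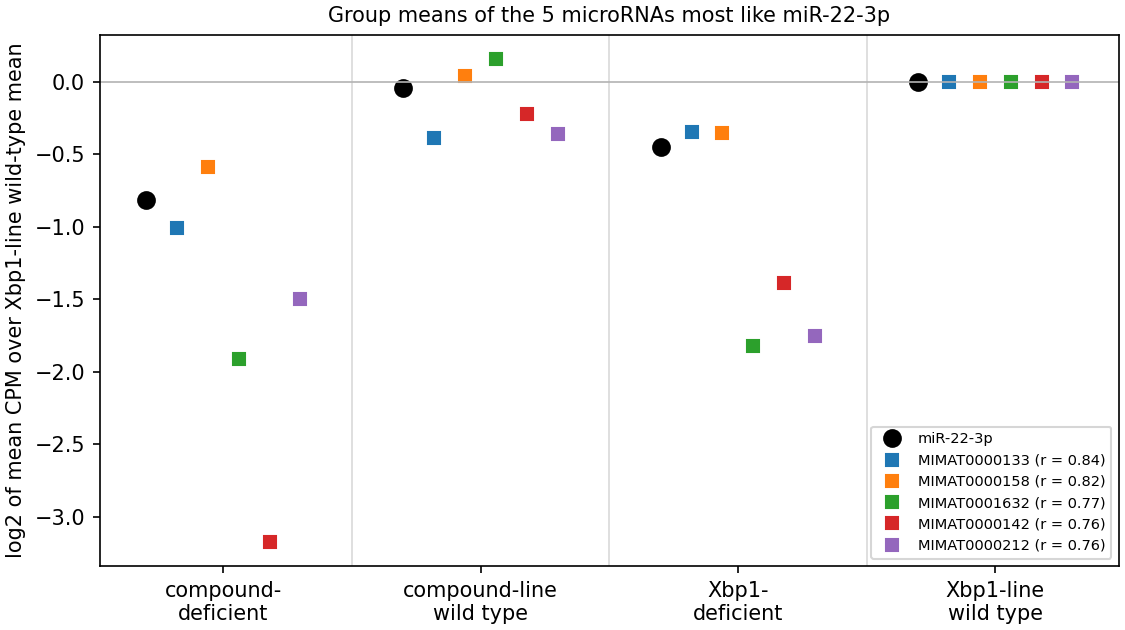
Group means of miR-22-3p (black) and of the 5 microRNAs of highest Pearson r with it, as log2 of the mean CPM over the mean of the Xbp1-line wild type, which is therefore at 0. Both deficient groups lie below the wild type of their line for all 6 microRNAs, and MIMAT0000142 had the lowest point, in compound-deficient cells, where it averaged 2.13 CPM. The shared direction largely follows from the choice: the 5 were picked for following miR-22-3p, itself chosen for being lower in deficient cells.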

How the data were processed

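Per the labels' protocols, 5000 to 50000 cDC1s per sample were sorted into Qiazol, and libraries were made with a TruSeq small RNA kit and size selected. Tools listed in the submitters' processing notes, with no role given, are Bowtie 1.1.2, cutadapt 1.8.1, limma 3.42.2 and FastQC 0.11.3; the builds listed there are mm10 and GRCm38. The authors deposited raw counts for 853 mature microRNAs and log2 values for 473 of them. From the values, the latter are log2 CPM of the count plus 0.5 on TMM-scaled library sizes plus 1, to within 4.97e-14. How reads that match several microRNAs were counted is not given in the sources used here. Groups and replicate numbers came from the sample descriptions.

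The counts were analysed with edgeR 4.0.16 in R 4.3.3: filterByExpr by group (count minimum 10), TMM scaling, 1 quasi-likelihood fit of 16 libraries with 4 group means, two-sided tests and Benjamini-Hochberg adjustment over 255 microRNAs. The lowest share of the counts that these took in a library was 99.87%. Log2 CPM had a prior count of 1. A floor is 3 counts of the total. Arm ratios were tested by exact permutation over libraries, and the hairpin was folded with ViennaRNA 2.7.2. The steps were tested on simulated data. Between the deficient genotypes they recovered 21.4% of 1.5-fold, 41.1% of 2-fold and 73.7% of 4-fold changes. Between the wild types they recovered 20.2%, 54.9% and 82.9%. Many smaller changes can therefore be missed in the counts of called microRNAs. No library was treated as a duplicate: within groups the lowest chi-square per degree of freedom between a pair of libraries was 17.7.

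The members, the lists and the tests were chosen with earlier results of these data known. Named besides miR-22 were the 5 tested microRNAs of highest r with miR-22-3p, and MIMAT0000525 because it takes the most reads; the rule was not applied to miR-22-5p, with 0 to 7 reads. Lists of leukocyte microRNAs and of markers of other cell types were not used, because 0 identifiers could be paired with names in the reference tables. The planned edgeR test of miR-22-5p was not made, since it did not pass the filter, and those planned for miR-22-3p are not reported, since its values in the same libraries entered its choice. Alternatives were other scalings and filters, DESeq2 1.42.0, limma 3.58.1 with voom weights or on the deposited log2 values, fits of the compared groups alone, replicate blocks and single libraries left out.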

Additional observations from a re-analysis of the deposited data

Results flagged for a closer look

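In 8 groups of values, single libraries were looked for whose distance to the nearest library, divided by the range of the group, exceeded Dixon's 95% value of 0.829 for 4 samples; chance gives this in about 1 in 20 groups. For miR-22-3p, compound-deficient library 3 stood at 15152 CPM (13.9 as log2 CPM) against 17131 to 17514 CPM in the remaining 3, a ratio of 0.847. Without that library the log2 fold change between compound-deficient and Xbp1-deficient cells was −0.32, against −0.36 with it. For the 5′ arm share, Xbp1-line wild-type library 6, at 0.00866%, was the sole library of its group above 0, a ratio of 1, and it rests on 2 reads. Any reads in a single library give a ratio of 1 when the others are at 0, so the chance of about 1 in 20 does not apply there.

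The 5′ arm lay on opposite sides of its wild type in the lines, a difference that was not tested. Relative to the mean of their wild type, all 4 compound-deficient libraries were lower in miR-22-5p CPM and all 4 Xbp1-deficient libraries were higher. The compound-line change less the Xbp1-line change was −7.30 CPM. For the 5′ arm share the same held, with a difference of −0.0242 percentage points. These values rest on 3 reads in compound-deficient cells and 14 in their wild type, and on 10 reads in Xbp1-deficient cells and 2 in theirs. The ranges of the deficient and wild-type groups overlapped in each line.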

How the results depend on the processing

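Of 254 recomputed values, 214 kept direction and call or moved by less than the replicate spread. Exceptions for miR-22-3p in deficient against wild-type cells were a log2 fold change of −0.55 with total counts alone and −0.33 with upper-quartile scaling in the Xbp1 line, and −1.06 with upper-quartile scaling in the compound line, where the difference of the changes became −0.73. These scalings moved the median of all tested microRNAs by −0.10 and 0.12 in the Xbp1 line and by −0.12 and −0.28 in the compound line, total counts first. Relative to that median, the change was −0.39 to −0.38 in the Xbp1 line and −0.82 to −0.80 in the compound line under all 5 scalings. These narrow ranges again follow from the measure.

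Between the deficient genotypes the log2 fold change of miR-22-3p, −0.36 as reported, was −0.60 to −0.30 over 12 alternatives. It was −0.30 with total counts alone, −0.42 with limma on the deposited log2 values, −0.33 with sequencing depth as a covariate, a choice made after seeing the data, −0.36 in a fit of these groups alone and −0.36 with replicate numbers as a block. Left-out libraries gave −0.43 to −0.32. The count of called microRNAs, 19 of 255 as reported, was 32 with DESeq2 and 11 of 473 with limma on the deposited values. It was 3 with the depth covariate, 7 in a fit of these groups alone, 9 with the replicate block and 0 to 21 with a library left out. At 0 calls, without Xbp1-deficient library 1 or 2, 38 and 42 of the 255 had an unadjusted edgeR p under 0.05.

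Between the wild types the log2 fold change of miR-22-3p was 0.0403 with total counts alone and 0.124 with upper-quartile scaling, and −0.106 to 0.0307 with a library left out. edgeR called 0 of 255 microRNAs, with 24 at an unadjusted p under 0.05. It called 14 of 808 without the filter, 2 in a fit of these groups alone and 0 to 2 with a library left out. DESeq2 called 4. The 5′ arm share differed by −0.00623 to 0.00185 percentage points between deficient genotypes, and by 0.0162 to 0.0287 between wild types, with a library left out. Between the wild types, the exact permutation p was 0.0286 without Xbp1-line library 6 (0.0249 percentage points), the smallest p then possible. It too is descriptive, since the 3′ counts entered the choice of miR-22.

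Replicate numbers are shared by compound-deficient, compound-line wild-type and Xbp1-deficient libraries, but correlations of same-numbered deviations ran from −0.26 to 0.26, so the numbers were not taken to pair libraries. Without the filter, the log2 fold change of miR-22-5p had an edgeR adjusted p of 1 in compound-deficient against Xbp1-deficient cells and 0.614 in compound-line against Xbp1-line wild type. No library had 10 reads of the 5′ arm, so that alternative was not run.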
